A study of Homo sapiens with 2 samples.

Results

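Many human genes lie so close to a neighbour that one stretch of DNA serves the ends of both. The intervals described here are the siNEG CUT&Tag intervals whose summit, the base with the highest signal, lay within 1 kb of an end of 2 or more different protein-coding genes. There were 1276 of them among 16274 siNEG intervals on chromosomes 1 to 22 and X, and they touched 2493 of 19974 protein-coding genes. In CUT&Tag a transposase tethered to an antibody cuts and tags DNA where the antibody's target sits. Here it was aimed at EWS-FLI, the fusion of EWSR1 to the ETS factor FLI1, in TC32, a long-established line of Ewing sarcoma cells. The groups were TC32 cells treated with siEWS-FLI (1 library) and TC32 cells treated with siNEG (1 library). What siNEG stands for is not spelled out in the labels, nor is the antibody named; siEWS-FLI is set against siNEG throughout. With 1 library in each group no difference below has a replicate check, and every interval given covers counting error only. PCR reads without molecular identifiers are not independent molecules, so these intervals are too narrow.

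In a bidirectional promoter, 2 genes are read in opposite directions from neighbouring start sites. Such promoters are usually rich in CpG and seldom hold a TATA box. Many belong to genes that most cells use, such as those of DNA repair and mitochondria, and some histone genes are paired in the same way. ETS factors bind a GGAA core, and in promoters of widely used genes they favour it with a preceding CC. In Ewing sarcoma EWS-FLI is known to bind both single ETS sites in promoters and runs of GGAA repeats far from genes.

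Depth was not given as read totals. The summit pileup, the number of reads over the summit base, was recovered from the deposited fold enrichment and p-value of each line, and it is a raw read number that was not scaled between libraries. Over the whole library the caller's background stood at 0.239 reads per base in siEWS-FLI and 0.348 in siNEG, a ratio of 0.687. Sites without a siEWS-FLI call may still hold siEWS-FLI reads, too few for a call.

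The sequences that the results turn on are 300-base promoter windows from RefSeq (GRCh38.p14, 250 bases before a gene's start and 50 after it), written 5′ to 3′ along the gene. Each window holds the siNEG summit of a site at paired gene ends. Capitals mark the letters CGGAAG, called the ETS core here, on either strand. SKIC2 (paired with NELFE) and VMA12 (paired with POLDIP2) are strong sites called in both libraries and rich in cores, XPC (paired with LSM3) is a strong site without CGGAAG in its window, though with CCGGAA at 2 places, and H2AC6 (paired with H2BC4) is a weak histone site called in both libraries. SIRT3 (paired with PSMD13) and HARS1 (paired with HARS2) have sites called with siNEG only, with cores.
SKIC2 promoter, chr6:31958925-31959224, plus strand: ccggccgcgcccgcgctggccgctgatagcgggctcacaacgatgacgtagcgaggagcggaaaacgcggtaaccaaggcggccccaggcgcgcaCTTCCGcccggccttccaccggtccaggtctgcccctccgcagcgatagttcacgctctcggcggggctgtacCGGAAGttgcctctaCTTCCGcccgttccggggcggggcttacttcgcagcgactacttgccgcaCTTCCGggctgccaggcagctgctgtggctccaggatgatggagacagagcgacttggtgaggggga
VMA12 promoter, chr17:28357397-28357696, plus strand: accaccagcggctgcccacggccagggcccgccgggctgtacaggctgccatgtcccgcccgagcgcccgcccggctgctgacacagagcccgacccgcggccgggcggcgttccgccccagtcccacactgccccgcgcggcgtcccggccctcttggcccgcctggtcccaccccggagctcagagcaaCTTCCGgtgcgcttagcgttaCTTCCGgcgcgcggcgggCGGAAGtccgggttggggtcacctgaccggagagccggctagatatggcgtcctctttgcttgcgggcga
XPC promoter, chr3:14178552-14178851, minus strand: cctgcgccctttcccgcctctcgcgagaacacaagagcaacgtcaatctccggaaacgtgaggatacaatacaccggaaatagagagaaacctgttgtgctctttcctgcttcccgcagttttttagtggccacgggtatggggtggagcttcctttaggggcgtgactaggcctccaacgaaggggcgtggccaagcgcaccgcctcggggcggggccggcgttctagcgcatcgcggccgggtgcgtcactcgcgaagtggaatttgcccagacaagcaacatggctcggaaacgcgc
H2AC6 promoter, chr6:26123922-26124221, plus strand: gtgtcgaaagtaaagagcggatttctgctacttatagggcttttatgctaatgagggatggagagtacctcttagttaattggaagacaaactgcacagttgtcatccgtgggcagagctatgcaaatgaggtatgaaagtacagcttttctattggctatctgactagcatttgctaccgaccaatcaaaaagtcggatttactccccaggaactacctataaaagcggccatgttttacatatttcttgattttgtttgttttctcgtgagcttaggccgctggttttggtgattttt
SIRT3 promoter, chr11:236882-237181, minus strand: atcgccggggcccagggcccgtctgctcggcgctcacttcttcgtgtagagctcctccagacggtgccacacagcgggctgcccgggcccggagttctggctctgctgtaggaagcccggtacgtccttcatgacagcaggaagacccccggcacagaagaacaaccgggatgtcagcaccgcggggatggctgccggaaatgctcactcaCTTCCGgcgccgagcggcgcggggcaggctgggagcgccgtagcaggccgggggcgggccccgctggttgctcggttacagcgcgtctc
HARS1 promoter, chr5:140691321-140691620, minus strand: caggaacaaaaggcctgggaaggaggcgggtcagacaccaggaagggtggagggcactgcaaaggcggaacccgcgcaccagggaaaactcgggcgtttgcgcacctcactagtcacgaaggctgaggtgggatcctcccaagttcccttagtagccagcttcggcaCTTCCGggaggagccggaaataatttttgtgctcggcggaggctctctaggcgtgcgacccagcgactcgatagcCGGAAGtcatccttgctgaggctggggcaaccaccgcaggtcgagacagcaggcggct

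Most sites of known strand lay where 2 genes start back to back. The strand of every gene concerned was known for 982 of the 1276 sites, and of these 584 (59.5%, Wilson 95% interval 56.4 to 62.5) had divergent starts, with the minus-strand gene starting to the left of the plus-strand gene. A further 166 (16.9%) had opposite starts whose genes overlap, 174 (17.7%) had the start of one gene and the far end of another, 45 (4.58%) had starts on the same strand, and 13 (1.32%) had gene ends without a start. The strand was not known for a gene of the other 294 sites. At 52 sites there were 3 or more genes, as at PRDX5, ESRRA and TRMT112.

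Divergent gene pairs often carried a siNEG site. Of 814 such pairs in the gene table with starts within 1 kb of each other, 587 (72.1%, 68.9 to 75.1) had a siNEG summit within 1 kb of both genes. Among 9899 genes with no other gene end within 2 kb, 2568 (25.9%, 25.1 to 26.8) had a siNEG summit at their start. A site called in both libraries was present at 233 of the pairs (28.6%) and at 675 of the lone genes (6.82%). The pairs and the lone genes were not matched for any other property.

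The sites at paired gene ends were stronger than those at single gene ends, and more of them were called with siEWS-FLI as well. The median siNEG pileup was 15 reads (quartiles 9 and 32) at paired ends and 11 (7 and 21) at the 4611 sites with a single gene end. Of the 1276 paired sites 491 overlapped a siEWS-FLI interval by at least 1 base (38.5%, 35.8 to 41.2), against 25.4% (24.2 to 26.7) of single-end sites, 8.45% (7.93 to 9.0) of sites at no gene end and 15.6% of all siNEG intervals. The difference from single ends was 13.1 percentage points (10.1 to 16.0). It was 4.5 points when each interval had to cover 50% of the other, where 17.3% of paired sites were shared, and 7.01 with both lists limited to −log10 q of 5 or more. The single-end sites include far ends of genes: at 3653 single starts 27.4% were called in both, and the difference, in a comparison added after seeing the data, was 11.1 points (8.06 to 14.1). The other 785 paired sites were called with siNEG only.

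Part of this difference went with siNEG strength. At 4 to 6 siNEG reads 10.9% (6.92 to 16.8) of paired sites were called in both libraries, against 4.28% (3.03 to 6.01) of single starts. At 7 to 9 reads the shares were 12.6% and 9.34%, and at 10 to 19 reads 26.1% (22 to 30.7) and 22.4% (20.1 to 24.9). At 20 to 49 reads they were 54.6% (49.2 to 60) and 52.3% (48.6 to 56.1), at 50 to 99 reads 82.5% and 82.1%, and at 100 or more 96.6% and 98.0%. From 7 reads upward the intervals of paired sites and single starts overlapped. Weighted to equal siNEG strength the difference from all single ends was 5.85 points, from shares of 32.8% and 27.0%. Sites at no gene end had a smaller share called in both in every class, for example 28.2% (25.4 to 31.2) at 20 to 49 reads.

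**Figure D1:**
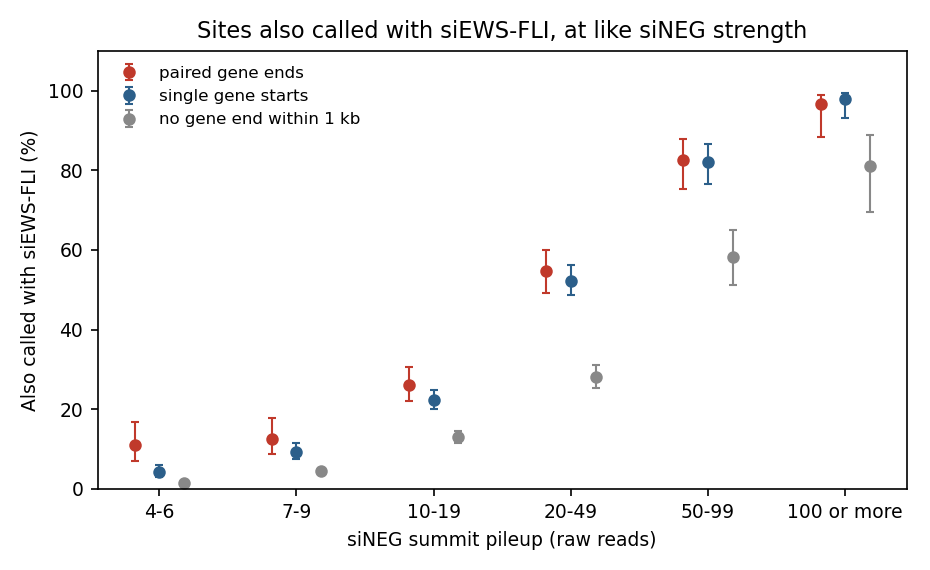
Share of siNEG sites also called with siEWS-FLI (y axis, percent, bars are Wilson 95% intervals) by class of siNEG summit pileup (x axis, raw reads) for paired gene ends, single gene starts and sites with no gene end within 1 kb. From 20 reads upward paired ends (54.6% at 20 to 49 reads) and single starts (52.3%) lie together, and sites away from gene ends (28.2%) lie below them.

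Where both libraries had a peak, the siEWS-FLI pileup was nearly always the smaller. Of 491 shared paired sites it was lower with siEWS-FLI at 474, equal at 7 and higher at 10. The 17 equal or higher sites all had between 4 and 9 siNEG reads. The median ratio of siEWS-FLI to siNEG pileup was 0.255 (quartiles 0.158 and 0.419) at paired ends and 0.282 at single ends. At 50 or more siNEG reads it was 0.139 at 169 paired sites, with a range of 0.0506 to 0.373, and 0.137 at 343 single-end sites. Sites were ranked by the siNEG value that forms the denominator, which by construction pulls the ratio down, and the part of depth was not tested.

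**Figure D2:**
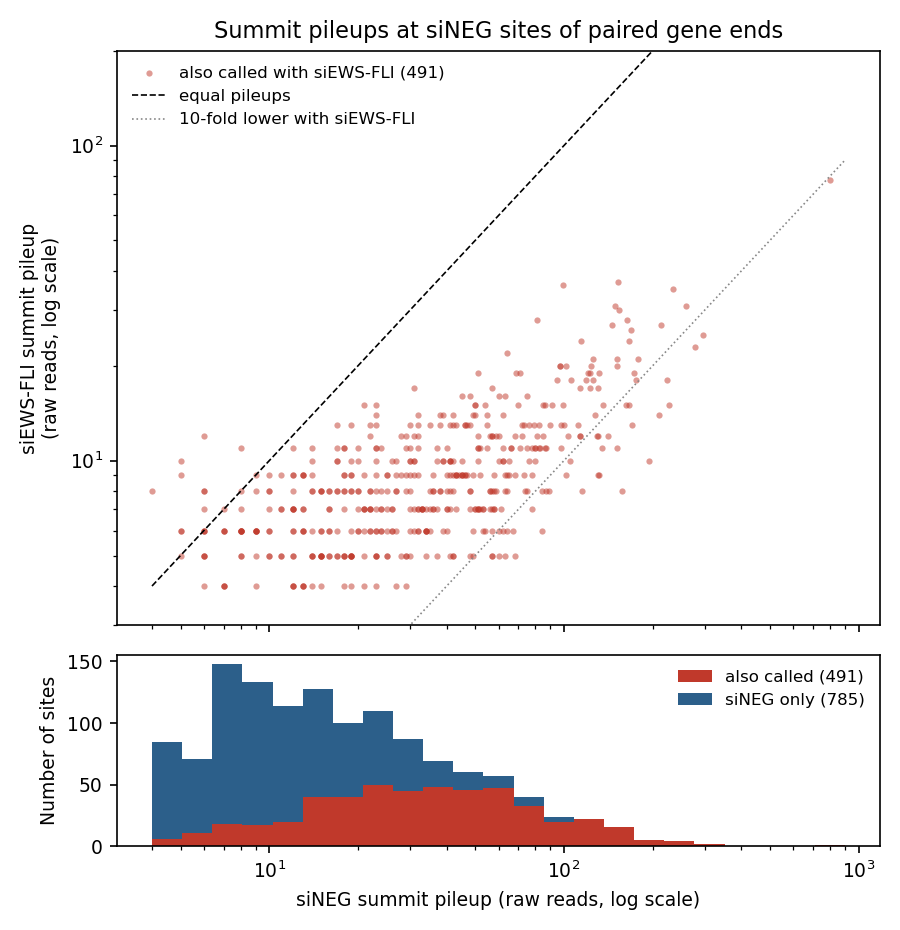
Upper panel: siEWS-FLI (y axis) against siNEG (x axis) summit pileup in raw reads, both on log scales, one point for each of the 491 sites at paired gene ends called in both libraries, with lines of equal pileup and of a 10-fold lower siEWS-FLI pileup. Lower panel: number of sites by siNEG pileup, for the 491 also called with siEWS-FLI and the 785 called with siNEG only. All points with 50 or more siNEG reads lie below the line of equality, at ratios of 0.373 or less.

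The strongest shared sites joined genes of unlike roles. The first was the site of LONP1, a mitochondrial protease, and CATSPERD, a subunit of a sperm calcium channel, with 78 reads with siEWS-FLI (exact Poisson 95% interval 61.7 to 97.3) and 801 with siNEG (746 to 858). The outermost annotated starts of these genes lie 185 bases apart, and the siNEG summit lies outside them. Start-to-start distances here are between the outermost annotated starts, which for 1786 of 2126 genes at paired sites (84%) are also the start in the promoter table. LONP1 is not one of them. By its start in the promoter table the siNEG summit lies between the starts of LONP1 and CATSPERD. PGAP3, an enzyme of GPI anchor remodelling, and ERBB2, the receptor tyrosine kinase HER2, start 37 bases apart on chromosome 17 (39687790 to 39688317) and had 25 reads with siEWS-FLI (16.2 to 36.9) and 297 with siNEG (264 to 333). The promoter window of ERBB2 holds 3 ETS cores.

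SKIC2, a helicase of the SKI complex of RNA decay, and NELFE, a subunit of the negative elongation factor, had 23 reads with siEWS-FLI (14.6 to 34.5) and 279 with siNEG (247 to 314) on chromosome 6 (31958739 to 31959394), with the summit between starts 204 bases apart and 4 cores in the window shown above. SOWAHC and SEPTIN10, which encodes a septin, had 31 reads with siEWS-FLI and 260 with siNEG. SHC1, a signalling adaptor, and CKS1B, a subunit of cyclin-dependent kinases, had 35 reads with siEWS-FLI and 235 with siNEG. PPME1, a methylesterase of protein phosphatase 2A, and C2CD3, a centriole protein, had 27 reads with siEWS-FLI and 213 with siNEG. These 6 sites, all at divergent starts, had ratios between 0.0824 and 0.149.

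BET1L and RIC8A had 15 reads with siEWS-FLI and 228 with siNEG, TRIM35 and PTK2B 18 with siEWS-FLI and 224 with siNEG, VMA12 and POLDIP2 14 with siEWS-FLI and 210 with siNEG, and PHRF1 with LOC124902805 10 with siEWS-FLI and 194 with siNEG. At PHRF1 the second gene end is the far end of LOC124902805. PHRF1, BET1L and VMA12 were also among the 5 lowest ratios at 50 or more siNEG reads: 0.0515 at PHRF1, 0.0658 at BET1L and 0.0667 at VMA12. The lowest was RMND1, a mitochondrial protein gene, with DCPH1, at 0.0506 (8 reads with siEWS-FLI and 158 with siNEG). PRKAG1, an AMPK subunit gene, and the far end of KMT2D, an H3K4 methyltransferase gene, gave 0.0682 (9 reads with siEWS-FLI and 132 with siNEG).

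The 5 highest ratios at that depth were those of GSTZ1 and POMT2 (0.373, 19 reads with siEWS-FLI and 51 with siNEG), SPAG7 and CAMTA2 (0.364, 36 with siEWS-FLI and 99 with siNEG), VMAC and NDUFA11 (0.346, 28 with siEWS-FLI and 81 with siNEG), DDX42 and CCDC47 (0.344, 22 with siEWS-FLI and 64 with siNEG), and ZNHIT1 and PLOD3 (0.3, 15 with siEWS-FLI and 50 with siNEG). At SPAG7 the second gene end is the far end of CAMTA2. The Poisson intervals of the raw siEWS-FLI and siNEG pileups did not overlap at any of these 5 sites. At GSTZ1, for example, they ran from 11.4 to 29.7 with siEWS-FLI and from 38.0 to 67.1 with siNEG. These pileups were not scaled for depth, and the sites were picked for many siNEG reads. The lack of overlap is therefore no check of a difference between the libraries.

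Of 195 paired sites with 50 or more siNEG reads 26 were called with siNEG only, and 169 in both libraries, beside 79.8% called in both among all siNEG intervals of that strength. The strongest siNEG-only site joined PSMD13, a subunit of the proteasome's regulatory particle, and SIRT3, a mitochondrial deacetylase, whose starts lie 45 bases apart on chromosome 11 (236509 to 237222). It had 103 siNEG reads (84.1 to 125). The start of ZC3H10 and the far end of RPL41, a ribosomal protein gene, had 101 siNEG reads.

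NEK8, a kinase of cilia, and TLCD1 had 95 siNEG reads, and C19orf47 and PLD3 had 85. SCO1, a copper chaperone of cytochrome c oxidase, and ADPRM had 80. AP1B1 and RFPL1 had 74, as had CAGE1 and RIOK1, a kinase of ribosome assembly. AAMP and PNKD had 71, and LIPT1, a lipoyltransferase gene, and TSGA10 had 70. In the promoter table TLCD1, PNKD and TSGA10 start more than 1 kb from these summits. Only their outermost annotated starts lie within 1 kb. The siEWS-FLI list gives no reads at a site that was not called, so how many lay at these sites is not known here.

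Of 20 gene pairs listed as well-known neighbours, 19 have annotated ends within 2 kb of each other, and 14 had a siNEG site at both genes and 7 of them a site called in both libraries. Of the 814 divergent pairs with starts within 1 kb, 72.1% had a siNEG site and 28.6% one called in both. The listed pairs are named as examples and not as a group set apart. LSM3, a splicing and decay factor, and XPC, the damage sensor of nucleotide excision repair, had 15 reads with siEWS-FLI (8.4 to 24.7) and 162 with siNEG (138 to 189). GABPA, itself an ETS factor, and ATP5PF, an ATP synthase subunit, had 15 reads with siEWS-FLI (8.4 to 24.7) and 85 with siNEG (67.9 to 105). ATM, the kinase of DNA double-strand breaks, and NPAT, a coactivator of histone genes, had 12 reads with siEWS-FLI (6.2 to 21.0) and 57 with siNEG (43.2 to 73.9), with starts 429 bases apart. TBP, the TATA-binding protein, and PSMB1, a proteasome core subunit, had 7 reads with siEWS-FLI (2.81 to 14.4) and 52 with siNEG (38.8 to 68.2). At these 4 sites the intervals of the raw pileups did not overlap. The pileups were not scaled for depth, so this too is no check of a difference between the libraries.

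MRPS12, a mitochondrial ribosome protein, and SARS2, a mitochondrial seryl-tRNA synthetase, had 5 reads with siEWS-FLI (1.62 to 11.7) and 23 with siNEG (14.6 to 34.5). APEX1, the main endonuclease of base excision repair, and OSGEP, a tRNA-modifying enzyme, had 9 reads with siEWS-FLI (4.12 to 17.1) and 13 with siNEG (6.92 to 22.2), intervals that overlap. PRKDC, the catalytic subunit of DNA-PK, and MCM4, a subunit of the replicative helicase, had 2 siNEG sites. The one nearer to MCM4 had 6 reads with siEWS-FLI and 7 with siNEG, and the one nearer to PRKDC had 12 siNEG reads alone.

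The other 7 of the 14 pairs were called with siNEG only, and PSMD13 with SIRT3, described above, was the strongest of them. FEN1, the flap endonuclease of lagging-strand synthesis, and TMEM258 had 50 siNEG reads (37.1 to 65.9). HARS1 and HARS2, the cytosolic and mitochondrial histidyl-tRNA synthetases, had 33 (22.7 to 46.3) and HSPD1 and HSPE1, the mitochondrial chaperonin and its cofactor, 31 (21.1 to 44.0). TK1, thymidine kinase, and AFMID had 13, PSMB9 and TAP1, a proteasome subunit and a peptide transporter of antigen presentation, had 12, and SURF1 and SURF2 had 9. Among the 6 listed pairs without a siNEG site at both genes were PPAT with PAICS, COL4A1 with COL4A2, CENPU with PRIMPOL, POLG2 with DDX5 and DNAJC19 with FXR1. The annotated ends of PPAT and PAICS lie too far apart for such a site, and the last 3 pairs named have near ends but do not start side by side.

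**Figure D3:**
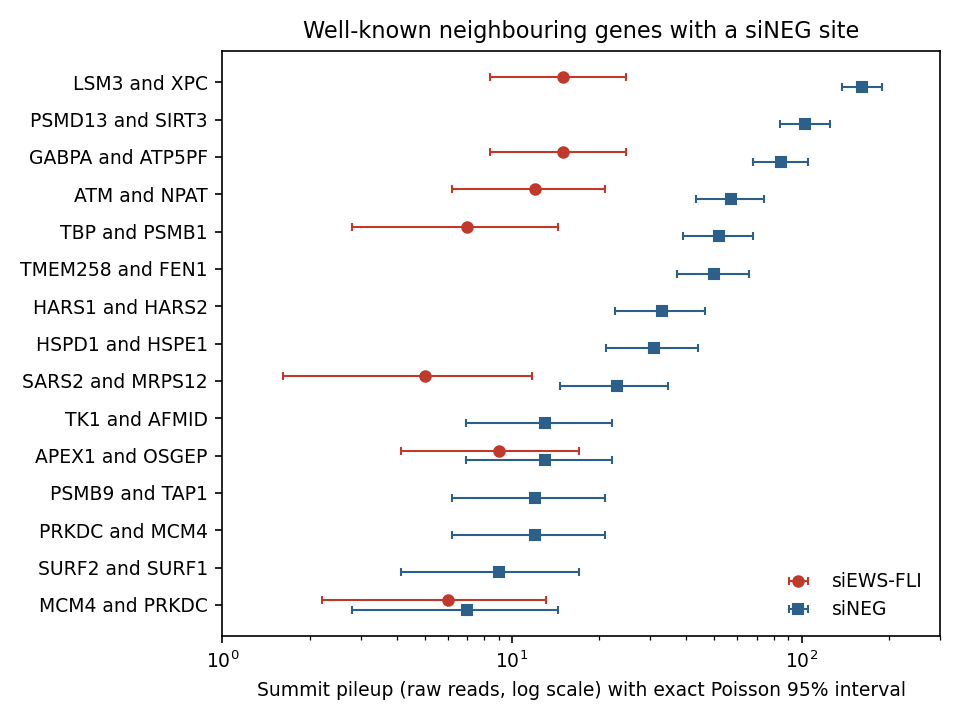
Summit pileups (x axis, raw reads on a log scale, bars are exact Poisson 95% intervals) with siEWS-FLI (circles) and siNEG (squares) at the siNEG sites of well-known neighbouring genes, one row for each site and with 2 sites for PRKDC and MCM4. Rows without a circle were not called with siEWS-FLI, as at PSMD13 and SIRT3, which had 103 siNEG reads.

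Each functional gene list below, from DNA repair to zinc finger and histone genes, lay at paired sites in a larger share than genes at large. For the ribosome, proteasome, chromatin and zinc finger lists the Wilson interval took in the share of genes at large. The lists of reported EWS-FLI1 targets and of cell markers had no larger share. The lists were chosen with earlier results of these data known, so they are described by counts alone. A gene can have a paired site only if another gene's end lies near it, so the shares are taken over genes with another gene end within 2 kb. Genes of a list that share a site are each counted, so the intervals given for the lists are too narrow. Of 7267 such genes 2493 (34.3%) had a paired siNEG site, and 989 of the 2493 (39.7%) had one called in both libraries.

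DNA repair genes had a paired site in 30 of 55 cases (54.5%, 41.5 to 67.0), and 13 of the 30 were shared. They included PALB2, the partner of BRCA2, which starts 156 bases from DCTN5 (6 reads with siEWS-FLI and 57 with siNEG), and LIG1, DNA ligase 1, beside ZSWIM9 (9 with siEWS-FLI and 52 with siNEG). Replication genes had one in 18 of 28 cases (64.3%, 45.8 to 79.3), 8 of them shared. ORC4, a subunit of the origin recognition complex, and MBD5 had 16 reads with siEWS-FLI and 63 with siNEG, and MCM7, a subunit of the replicative helicase, and AP4M1 had 16 reads with siEWS-FLI and 48 with siNEG.

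Genes of the respiratory chain and ATP synthase had a paired site in 31 of 54 cases (57.4%, 44.2 to 69.7), 10 of them shared. ATP5MK with PDCD11 had 8 reads with siEWS-FLI and 87 with siNEG, and NDUFS3, a subunit of complex I, with KBTBD4 had 16 with siEWS-FLI and 75 with siNEG. Mitochondrial ribosome genes had one in 21 of 52 cases (40.4%), 9 of them shared. MRPS18B with PPP1R10 had 12 reads with siEWS-FLI and 113 with siNEG, MRPL51 with the condensin gene NCAPD2 13 with siEWS-FLI and 100 with siNEG, MRPL10 with LRRC46 13 with siEWS-FLI and 55 with siNEG, and MRPL18 with the chaperonin gene TCP1 7 with siEWS-FLI and 50 with siNEG. The siEWS-FLI pileup was the lower at each of these named sites, as at all 169 shared paired sites with 50 or more siNEG reads. The sites were named for their high siNEG pileup, so this does not set these lists apart.

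Aminoacyl-tRNA synthetase genes, whose enzymes charge tRNAs, had a paired site in 13 of 19 cases (68.4%, 46.0 to 84.6), 5 of them shared, led by CARS2 with ING1 (13 reads with siEWS-FLI and 112 with siNEG), EARS2 with UBFD1 (18 with siEWS-FLI and 106 with siNEG), YARS1 with S100PBP (7 with siEWS-FLI and 61 with siNEG) and WARS1 with WDR25 (7 with siEWS-FLI and 51 with siNEG). In the promoter table CARS2 and S100PBP start more than 1 kb from the summits, and only their outermost annotated starts lie within 1 kb. Translation factors had a paired site in 15 of 25 cases (60%), 8 of them shared. EIF2S1, the alpha subunit of initiation factor 2, with ATP6V1D had 18 reads with siEWS-FLI and 119 with siNEG, EIF2A with SERP1 17 with siEWS-FLI and 113 with siNEG, and EEF1B2 with NDUFS1 6 with siEWS-FLI and 49 with siNEG, while EIF4E2 with TIGD1 had 54 siNEG reads alone.

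Cytosolic ribosome genes had one in 17 of 39 cases (43.6%), 7 of them shared: RPS18 with VPS52 had 9 reads with siEWS-FLI and 46 with siNEG and RPS27 with RAB13 7 with siEWS-FLI and 33 with siNEG, while RPLP2 with PIDD1 had 37 siNEG reads alone. RAB13 and PIDD1 start more than 1 kb from these siNEG summits in the promoter table, and only their outermost annotated starts lie within 1 kb. Proteasome genes had a paired site in 10 of 23 cases (43.5%), 5 of them shared, with 7 reads with siEWS-FLI and 48 with siNEG at PSMD9 and HPD and 12 with siEWS-FLI and 31 with siNEG at PSME2 and RNF31. Splicing factor and RNA helicase genes had one in 44 of 91 cases (48.4%), 20 of them shared, with 21 reads with siEWS-FLI and 126 with siNEG at DHX38 and TXNL4B, 20 with siEWS-FLI and 102 with siNEG at SNRPD2 and QPCTL, and 6 with siEWS-FLI and 84 with siNEG at SNRPD3 and GUCD1. Chromatin and transcription genes had one in 16 of 39 cases (41.0%), 7 of them shared. GTF2H1, a subunit of TFIIH, with HPS5 had 15 reads with siEWS-FLI and 99 with siNEG, and GTF2H3 with EIF2B1 had 40 siNEG reads alone. Zinc finger genes had one in 59 of 142 cases (41.5%), 21 of them shared, with 37 reads with siEWS-FLI and 153 with siNEG at ZNF473 and VRK3, 21 with siEWS-FLI and 151 with siNEG at ZNF408 and ARHGAP1, and 19 with siEWS-FLI and 132 with siNEG at ZNF524 and FIZ1. ZNF653 and ECSIT, the start of one gene and the far end of the other, had 19 with siEWS-FLI and 69 with siNEG.

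Among 29 genes that studies report EWS-FLI1 to activate, 9 had another gene end within 2 kb and 1 of these had a paired site. It was AURKA, a mitotic kinase gene, with CSTF1, at 12 siNEG reads (6.2 to 21.0), not called with siEWS-FLI. Of 15 reported as repressed 3 had another gene end within 2 kb, and 1 of these (33.3%) had a paired site. It was TGFBR2, a TGF-beta receptor gene, with LOC105377015, at 7 siNEG reads and likewise not called with siEWS-FLI. None of 5 blood cell and 5 hepatocyte marker genes had one, and 2 of these 10 had another gene end within 2 kb. Such small lists allow wide ranges: the 1 of 9 corresponds to 11.1% (1.99 to 43.5).

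Histone gene pairs had weak sites and promoters without CGGAAG. These genes are copied into RNA during DNA synthesis and lie as H2A and H2B pairs on chromosomes 6 and 1. They had a paired site in 27 of 54 cases (50%, 37.1 to 62.9), 10 of them shared, with a median of 9 siNEG reads against 15 over all genes at paired sites. At 8 sites of histone genes with divergent starts the start-to-start distance was 194 to 248 bases. The strongest was H2BC11 with H2AC11, with 12 reads with siEWS-FLI (6.2 to 21.0) and 28 with siNEG (18.6 to 40.5). H2BC4 with H2AC6 had 8 reads with siEWS-FLI (3.45 to 15.8) and 12 with siNEG (6.2 to 21.0), and H2BC26 with H2AC25 had 8 with siEWS-FLI and 9 with siNEG. These 3 were shared, and the other 5, among them H2AC14 with H2BC14 (11 siNEG reads), were called with siNEG only. Over all 584 divergent sites 39.7% were shared. Elsewhere in the list H2AC21 with H2AC20, the start of one gene and the far end of the other, had 4 reads with siEWS-FLI and 13 with siNEG. Of the 17 promoters at these 8 sites 17 held a CCAAT box, 10 held the TATA box letters TATAAA and 0 held the ETS core, as in the H2AC6 window shown above. Histone genes are near-identical copies, so reads could be placed on a wrong copy.

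Start-to-start distance varied with strength. Over the 584 divergent sites the median distance was 186 bases, with 216 at the 232 shared sites and 165.5 at the 352 siNEG-only sites. Of 271 sites with starts over 200 bases apart 48.0% (42.1 to 53.9) were shared, against 32.6% (27.6 to 38.0) of 313 with closer starts, and their median siNEG pileups were 19 and 13 reads. At 20 to 49 siNEG reads the shares were 51.9% (41.1 to 62.6) and 54.5% (43.5 to 65.2), so the difference was not seen there. At 7 to 9 reads they were 28.9% (17.0 to 44.8) and 5.56% (1.91 to 15.1). At 4 to 6 reads the shares were 13.6% and 8.33%, and at 10 to 19 reads 32.9% and 25.5%. At 50 to 99 reads they were 88.2% and 76.7%, and at 100 or more 100% and 83.3%. Sites with wider gaps thus had the larger share in every class but 20 to 49 reads. The intervals overlapped in every class but 7 to 9 reads.

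The siNEG summit lay between the starts at 298 of 584 divergent sites (51.0%). This share was 10.9% (6.63 to 17.5) where the starts lay 100 bases apart or less and 89.1% (77.0 to 95.3) above 500 bases. A wider gap leaves more room for a summit between the starts. With starts 200 bases apart or less the summit lay a median of 58 bases inside the nearer gene, and with wider gaps before its start, at −92 bases. At single starts the median was −70 bases. Of 70 divergent intervals with several deposited summits, 42 had summits nearest to each of the starts. At the 232 shared divergent sites the siEWS-FLI summit lay a median of 68 bases from the siNEG summit, and at 166 (71.6%) both were nearest to the same start.

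**Figure D4:**
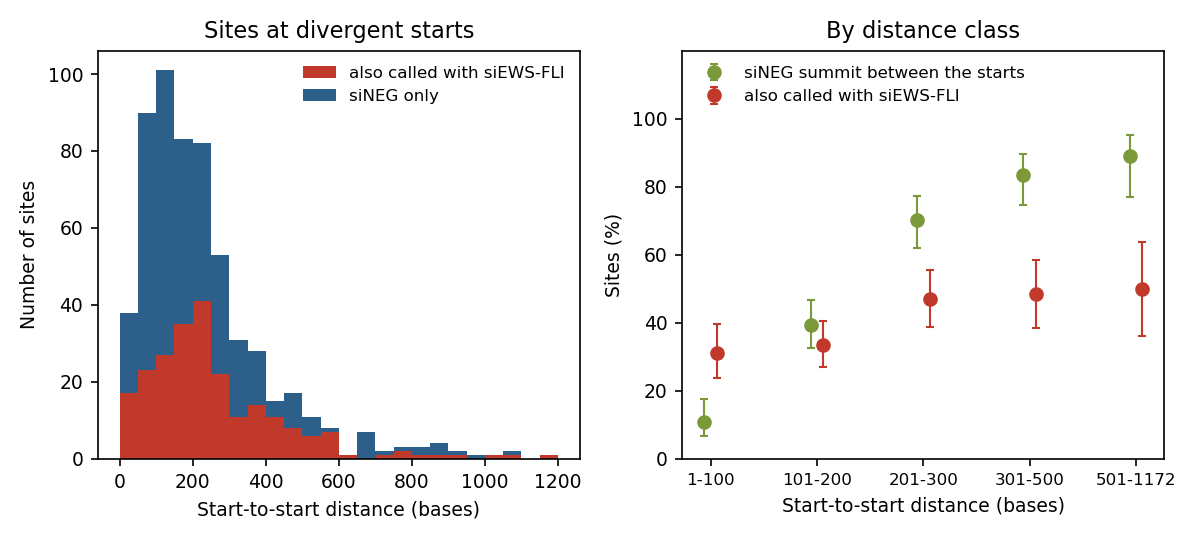
Left: number of siNEG sites at divergent starts (y axis) by start-to-start distance (x axis, bases), for sites also called with siEWS-FLI and siNEG-only sites, stacked. Right: percent of sites (y axis, bars are Wilson 95% intervals) whose siNEG summit lies between the starts and percent also called with siEWS-FLI, by distance class (x axis, bases). The share with the summit between the starts runs from 10.9% in the closest class to 89.1% in the widest.

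ETS sequences were more frequent in promoters at stronger sites. Of 2493 genes at paired sites 2126 had a promoter window in the RefSeq table, and for 1924 of these the strongest siNEG site at the gene's start was a paired one. The ETS core CGGAAG was searched on both strands, as was the longer CCGGAAGT, which contains it. The longer sequence was in 18.6% (16.9 to 20.4) of the 1924 windows, in 6.2% of 15812 windows of all protein-coding genes and in 1.5% of 10067 windows of genes with no siNEG site at either end. By siNEG pileup it was in 7.49% (5.55 to 10) of windows at sites under 10 reads, 15.4% (12.7 to 18.5) at 10 to 19, 23.8% (20.3 to 27.7) at 20 to 49 and 35.3% (30.2 to 40.8) at 50 or more. The core was in 33.3%, 45.9%, 57.6% and 68.0% of the same classes, against 25.6% of all windows. A match is a description of the letters, and 55.2% of the 1924 windows held the siNEG summit itself.

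The pair of GGAA units GGAAGGAA showed no such order. They were in 2.91% (2.25 to 3.76) of windows at paired sites and 3.55% of all windows, with 3.37% at sites under 10 reads and 3.92% at 50 or more. Among the other motifs, windows at paired sites and all windows held the GC box GGGCGG in 72.3% and 58.5%, the CCAAT box in 42.3% and 36.3%, the YY1 sequence ATGGCGG in 13.4% and 7.63%, the E-box CACGTG in 11.7% and 8.87%, the NRF1 sequence GCATGCG in 8.42% and 5.14%, the CRE sequence TGACGTC in 5.56% and 4.59%, and TATAAA in 4.26% and 9.64%. The median GC content was 64.7% and 62.7%. At shared and siNEG-only single starts the GC box was in 76.0% and 75.7% of windows and the CCAAT box in 48.4% and 39.9%. There YY1 was in 12.3% and 11.3%, the E-box in 10.9% and 9.71%, and NRF1 in 8.58% and 7.28%. CRE was in 6.66% and 6.5% and TATAAA in 4.64% and 4.3%, with a median GC content of 65.0% and 66.3%. Single starts thus differed from all windows in the same direction as paired sites. Windows of genes whose starts lie close together share bases and are not independent.

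The difference in ETS content between shared and siNEG-only sites was not seen within classes of siNEG strength. The longer ETS sequence was in 23.8% (20.9 to 26.9) of windows at shared paired sites and 15.0% (13 to 17.2) at siNEG-only ones. Under 10 siNEG reads the shares were 5.63% (2.21 to 13.6) and 7.78% (5.67 to 10.6). At 10 to 19 siNEG reads they were 17.2% (12.2 to 23.7) and 14.7% (11.6 to 18.4). At 20 to 49 reads they were 22.1% (17.7 to 27.4) and 25.8% (20.5 to 31.9), and at 50 or more 34.2% (28.8 to 40.1) and 43.2% (28.7 to 59.1). In each of these classes the intervals overlapped, and windows at siNEG-only sites had the larger share in every class but 10 to 19 reads. In the windows shown above, SIRT3 and HARS1 hold ETS cores at sites called with siNEG only, and XPC holds no CGGAAG, though CCGGAA, at a site called in both libraries. At single starts the longer sequence was in 18.2% (15.9 to 20.7) of shared and 11.2% (10.1 to 12.5) of siNEG-only windows.

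**Figure D5:**
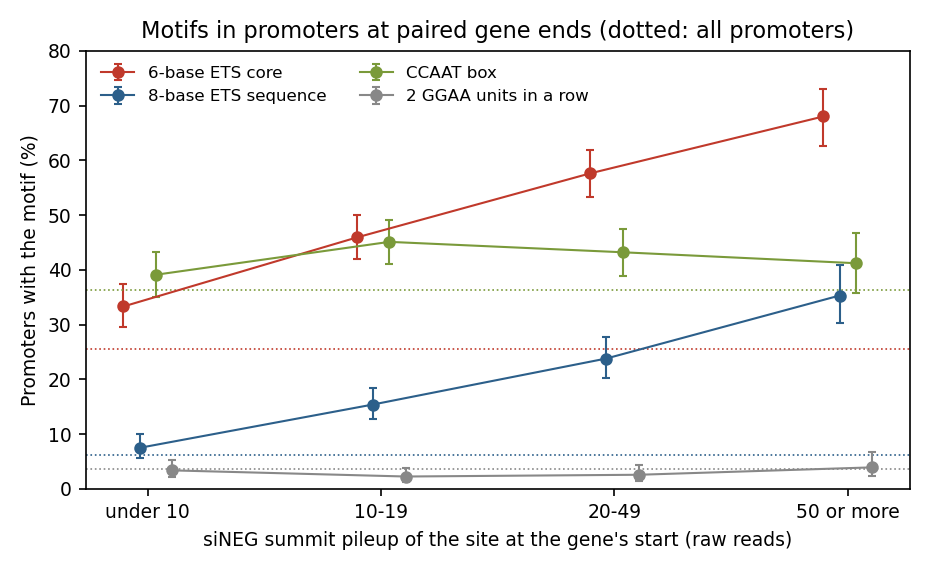
Share of promoter windows with a motif (y axis, percent, bars are Wilson 95% intervals) by the siNEG summit pileup of the paired-end site at the gene's start (x axis, raw reads), for the ETS core, the longer ETS sequence, the CCAAT box and 2 GGAA units in a row. Dotted lines give the share in all protein-coding promoter windows. The longer ETS sequence runs from 7.49% to 35.3% and the GGAA pair stays between 2.25% and 3.92%.

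The 1 kb limit passed through a continuous range of distances. Just inside it, with the second gene end 1000, 999 and 997 bases from the summit, lay PRR7 and DBN1 (19 siNEG reads), EPHB4 and SLC12A9 (11), and BSN and APEH (10 reads with siEWS-FLI and 60 with siNEG). Just outside, at 1001, 1004 and 1008 bases, lay VAC14 and HYDIN (6 siNEG reads), DCAF15 and PODNL1 (8 with siEWS-FLI and 20 with siNEG), and LAMTOR2 and UBQLN4 (9 siNEG reads).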

How the data were processed

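Peak lists were deposited for each library separately. The submitters' processing notes name the build hg38 and the tools MACS2 2.2.9.1, Bowtie2 2.4.5 and Trim Galore 0.6.6, without roles. Libraries were amplified by 14 and then 20 PCR cycles, per the labels' protocols. Whether a control library was used, how duplicates were treated and which fragment settings applied is not given in the sources used here. Fold enrichment, as deposited, is a ratio of pileup to local background. The deposited −log10 p-value and −log10 q-value describe the summit, and the smallest −log10 q was 1.33 with siEWS-FLI and 1.32 with siNEG. The deposited score column was not used.

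Lines with the same interval were merged, keeping the summit with the highest −log10 q. The whole pileup k and background b that satisfy fold = (k + 1)/(b + 1) and the upper Poisson tail at k were found for 100% of lines in both lists (tolerance 0.001 on the log10 scale of p, widened for larger values). The commonest background was taken as the library-wide one, and 12 siNEG lines first solved below it were solved again above it. The recovery, the overlap and the pairing rule were tested on simulated data. Gene ends came from RefSeq GRCh38.p14 (19974 protein-coding genes on chromosomes 1 to 22 and X), whose primary chromosomes have hg38 coordinates, and strand from its promoter table, which holds 15812 of them. Strength weighting used 5 equal classes of −log10 q over gene-end sites. Intervals for differences of shares combine the 2 Wilson intervals. Python 3.11.15, SciPy 1.17.1 and pandas 2.3.3 were used.

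Members and gene lists were chosen with earlier results of these data known. Named were the 10 strongest shared and 10 strongest siNEG-only sites, the 5 highest and 5 lowest ratios at 50 or more siNEG reads, all listed well-known pairs with a site, up to 4 sites of each list by siNEG pileup, and the 3 sites on either side of 1 kb. A named site and a listed pair are not reported here. Patterns defined 9 lists by gene symbol; 3 of these patterns were narrowed after a first pass had let in genes of other families, and NPAT (DNA repair) and LOX (activated targets) were taken out by their roles after values had been seen. The search for promoter motifs used the 10 sequences named in the text. With 1 library in each group no test was run.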

Additional observations from a re-analysis of the deposited data

How the results depend on the processing

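No paired analysis was possible because each group has 1 library; for the same reason no replicate could be left out. Under 14 alternatives, 12 of them planned and 2 chosen after seeing the data, 65 values were recomputed for 6 results; 52 stayed within the counting interval of the reported value (a count, within 1.5 times), and 13 did not. With the siNEG list shortened to as many intervals as siEWS-FLI has, there were 840 paired sites, of which 52.1% were shared. The shared share of 38.5% became 35.8% with a 2 kb window, 17.3% at a reciprocal overlap of 50%, 26.8% with both lists limited to −log10 q of 5 or more and 41.5% among siNEG intervals wider than 200 bases. The difference from single gene ends of 13.1 points became 4.5 at a reciprocal overlap of 50%, 7.01 with that limit and 5.85 at equal siNEG strength, and it was above 0 in all alternatives run. The median pileup ratio of 0.255 became 0.214 at the reciprocal overlap. The share of divergent starts, 59.5% of sites of known strand, became 70.4% with a 500-base window and 51.0% with 2 kb, as a wider window takes in further ends, and 63.3% with genes whose start is the same in the annotation and the promoter table. Divergent sites were shared more often than other arrangements by 1.54 points (−4.69 to 7.68), a difference with no settled direction: it was −1.96 with a 500-base window, −2.17 at the reciprocal overlap and −0.214 at equal strength. Causes of the other changes were not tested. A site with few reads could be missed with siEWS-FLI, whose library-wide background was 0.687 of the siNEG value.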

Other observations

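The siEWS-FLI list had 557 intervals at paired gene ends, 8.76% of its intervals on chromosomes 1 to 22 and X, against 7.84% of the siNEG intervals. Of the 557, 516 (92.6%) overlapped a siNEG interval. The other 41 had at most 9 reads, against 78 for the strongest of the 557.

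The share of paired siNEG sites also called with siEWS-FLI varied by chromosome. It was highest on chromosome 19, with 63 of 119 (52.9%), followed by chromosome 11 with 40 of 82 (48.8%) and chromosome 1 with 60 of 133 (45.1%), and lowest on chromosome 4, with 4 of 23 (17.4%). Chromosomes with few such sites give wide ranges.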
